A study of Homo sapiens with 15 samples.

Results

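The inhibitor of DNA binding genes ID1, ID2, ID3 and ID4 were followed through exon junction complex (EJC) footprints of human HEK293 Flp-In TRex cells. The genes were found by their symbols in the deposited exon names, and each had 1 transcript there, so that 4 of 44786 genes and 13 of 279143 exons are described. They were chosen by their CASC3 footprint values, since ID1, ID2 and ID3 had more CASC3 footprints in cells given cycloheximide, an inhibitor of translation elongation. Their values in every comparison that uses those CASC3 libraries are therefore given as a description, with no test. Only comparisons made up of RNPS1 and RNA-seq libraries, which the choice did not use, were tested for them. The fits behind these tests also held CASC3 libraries, which shared in the estimate of the spread. The tests are thus not fully independent of the choice.

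Footprints came from RIPiT, in which complexes are purified through the FLAG tag of 1 EJC protein and then with an antibody against another, before the RNA that RNase I leaves protected is sequenced. In the treated groups, cells stably expressing FLAG-CASC3 or FLAG-RNPS1 received 100 μg/ml cycloheximide for 3 h and then 0.1% formaldehyde for 10 min, and EIF4A3 was the second target (CASC3-EIF4A3 and RNPS1-EIF4A3, crosslinked, with cycloheximide, 2 libraries each). Their controls were the same lines with the same crosslinking and no cycloheximide (2 libraries each). The remaining protein pairs were taken without crosslinking or cycloheximide, namely CASC3-EIF4A3, RNPS1-EIF4A3, MAGOH-EIF4A3, MAGOH-CASC3 and MAGOH-RNPS1 (native, 1 library each), the last 3 from a FLAG-MAGOH line. RNA-seq (2 libraries) came from cells of the same parental line for which the labels list no fusion protein, no cycloheximide and no crosslinking, after ribosomal RNA depletion. The CASC3 and RNPS1 footprints come from different stable lines, so protein and line cannot be told apart. No RNA-seq with cycloheximide was analysed here, so a change in the amount of an RNA and a change in footprints per RNA molecule cannot be told apart in any cycloheximide comparison.

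ID proteins are helix-loop-helix proteins that lack the basic region with which related factors hold DNA. They bind E proteins such as TCF3, TCF4 and TCF12 and keep them from pairing with cell type specific basic helix-loop-helix (bHLH) factors, which holds back differentiation. Their genes are classic direct targets of bone morphogenetic protein (BMP) signalling through SMAD1, SMAD5 and SMAD9. The EJC is left on RNA by splicing, 20 to 24 bases upstream of an exon junction, and translating ribosomes remove it. EIF4A3 and MAGOH are core EJC proteins, and CASC3 and RNPS1 are peripheral proteins that join it.

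The 4 genes differ in where their junctions lie. ID1 (ENST00000376112, chr20:31605283-31606515, plus strand, GRCh38) has 2 exons, and its stop codon is in the second. ID2 (ENST00000234091, chr2:8678845-8684453, plus strand) has 5 exons, of which exons 1 and 2 are untranslated and held almost no counts in any group. ID3 (ENST00000374561, chr1:23557918-23559794, minus strand) and ID4 (ENST00000378700, chr6:19837386-19840684, plus strand) have 3 exons each. In ID2, ID3 and ID4 the stop codon lies in a short penultimate exon, 7, 25 and 14 bases before its end, and the whole last exon is 3′ untranslated. These penultimate exons are shown because most of the pattern along the transcripts turns on them. They are printed whole, 5′ to 3′ on the coding strand, from the GENCODE v29 transcripts on GRCh38, and the capitals mark the bases 24 to 20 before the exon end, the position at which splicing leaves an EJC.
ID2 exon 4, chr2:8682843-8682906, 64 bases, 43.8% GC: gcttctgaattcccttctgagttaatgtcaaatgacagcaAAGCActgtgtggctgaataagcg
ID3 exon 2, chr1:23558935-23559019, 85 bases, 56.5% GC: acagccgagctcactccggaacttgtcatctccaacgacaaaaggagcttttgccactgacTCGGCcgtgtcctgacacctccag
ID4 exon 2, chr6:19838584-19838642, 59 bases, 69.5% GC: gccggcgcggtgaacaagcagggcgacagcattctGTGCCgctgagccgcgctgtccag
The exons upstream of them are long and rich in G and C. Their last 60 bases are shown for contrast, together with those of the only exon of ID1 that ends at a junction, with the same bases in capitals.
ID1 exon 1, chr20:31605754-31605813, 73.3% GC: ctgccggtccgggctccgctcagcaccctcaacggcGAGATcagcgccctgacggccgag
ID2 exon 3, chr2:8682454-8682513, 61.7% GC: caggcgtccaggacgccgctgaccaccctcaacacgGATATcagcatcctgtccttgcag
ID3 exon 1, chr1:23559127-23559186, 70.0% GC: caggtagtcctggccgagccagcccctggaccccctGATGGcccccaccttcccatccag
ID4 exon 1, chr6:19838136-19838195, 78.3% GC: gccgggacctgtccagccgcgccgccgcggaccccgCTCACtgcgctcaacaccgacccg
The deposited values are counts per exon, which do not place a footprint inside an exon. The antisense gene ID2-AS1 overlaps exon 1 of ID2 by 19 bases and exon 3 by 10 bases, and no antisense exon overlaps the other 3 genes. Whether counting used strand is not given in the sources used here.

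Total transcript counts ran from 467741 to 8057700 per library. One library stood apart: RNPS1-EIF4A3 with cycloheximide, replicate 2, had the lowest total and correlated with replicate 1 at r = 0.772, where the other pairs of replicates reached 0.908 to 0.971. The count-weighted GC content was 46.5% and 48.0% in the CASC3 libraries with cycloheximide and 48.1% and 56.6% in the RNPS1 libraries with cycloheximide, against 54.3% to 57.1% in the 4 crosslinked libraries without it. The RNPS1 tests and ratios are given with and without that library, exon shares are given by library where they turn on it, and values after a correction for GC content are given where they differ. In RNA-seq, 8 and 7 of the 9 markers listed for HEK293 cells exceeded 1 CPM (counts scaled to a library total of 1000000 transcript counts), and of 8 markers of other cells 2 did, COL1A1 and PECAM1, with 5 at 0.

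ID1 had 55.4 and 51.6 CPM in CASC3 footprints with cycloheximide, against 4.24 and 3.78 CPM without. In RNPS1 footprints it had 28.96 and 23.5 CPM with cycloheximide, against 7.23 and 3.86 CPM without. The groups did not overlap for either protein, and the same holds for ID2 and ID3 below. How many of all transcripts separate in this way was not counted, so nothing is read from it. For CASC3 these values chose the genes. Native libraries had 1.78 to 9.85 CPM, and RNA-seq had 2.62 and 3.38 CPM, which were 3 and 4 counts. ID1 is thus near the lower limit of what these RNA-seq libraries can measure.

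ID2 had 105.7 and 76.3 CPM in CASC3 footprints with cycloheximide, against 14.8 and 8.82 CPM without. RNPS1 footprints held 54.5 and 55.6 CPM with cycloheximide, against 25.9 and 16.2 CPM without. Again the treated and untreated libraries did not overlap. The native libraries lay between 18.9 CPM for MAGOH-EIF4A3 and 47.9 CPM for RNPS1-EIF4A3, and RNA-seq had 25.3 and 28.7 CPM.

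ID3 had 121.3 and 73.6 CPM in CASC3 footprints with cycloheximide, against 8.48 and 2.52 CPM without. RNPS1 footprints held 57.1 and 25.7 CPM with cycloheximide, against 5.10 and 10.4 CPM without. The groups were apart for both proteins, but replicates differed by more than for ID1 and ID2. ID3 took a smaller share of native footprints, 1.11 to 10.3 CPM, than of RNA, with 18.3 and 16.1 CPM in RNA-seq.

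ID4 had 70.9 and 66.9 CPM in CASC3 footprints with cycloheximide, against 135.6 and 79.3 CPM without. RNPS1 footprints held 47.2 and 124.0 CPM with cycloheximide, against 55.7 and 80.4 CPM without. ID4 was the only one of the 4 genes whose CASC3 footprints were lower in both treated libraries, and its RNPS1 groups overlapped. Native libraries had 48.0 to 97.3 CPM and RNA-seq had 107.4 and 93.8 CPM.

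**Figure D1:**
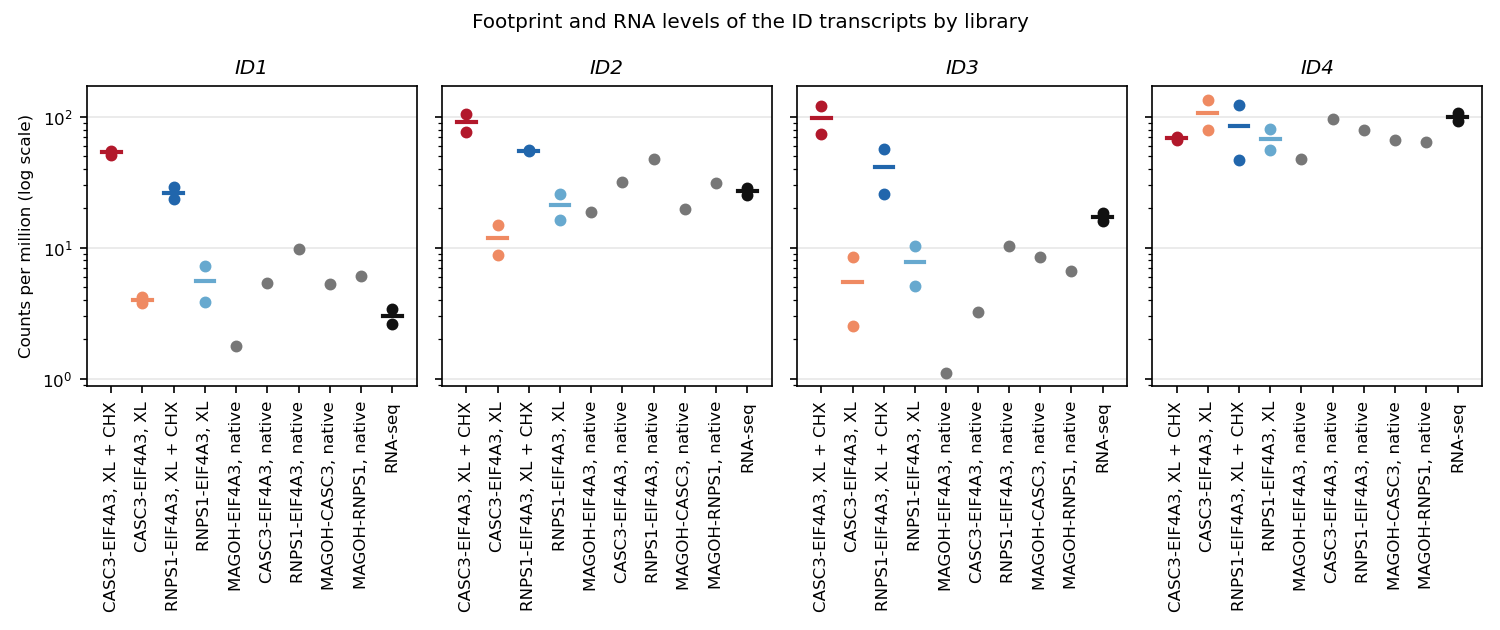
Level of each ID transcript in CPM on a log scale, by group; points are libraries and bars are means of groups with 2 libraries. ID1, ID2 and ID3 have their highest group means in CASC3 footprints with cycloheximide and their second highest in RNPS1 footprints with cycloheximide, while the groups of ID4 largely overlap.

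Ordered by group mean, CASC3 footprints with cycloheximide came first and RNPS1 footprints with cycloheximide second for ID1, ID2 and ID3. The ID1 means were 53.5 ± 2.63 and 26.2 ± 3.85 CPM, the ID2 means 91.0 ± 20.9 and 55.0 ± 0.790 CPM, and the ID3 means 97.4 ± 33.7 and 41.4 ± 22.2 CPM in the CASC3 and RNPS1 groups with cycloheximide (SD, n = 2 each). Below these, the order was different for each gene. For ID2, the next were native RNPS1-EIF4A3, native CASC3-EIF4A3, native MAGOH-RNPS1, RNA-seq and untreated RNPS1, and the last 2 did not differ beyond their spread. For ID3, RNA-seq came next and lay above all native and untreated footprints. Of these, the groups from native MAGOH-CASC3 down to native CASC3-EIF4A3 overlapped in turn. The range of untreated RNPS1 also took in native RNPS1-EIF4A3. For ID1, the range of untreated RNPS1 took in native MAGOH-RNPS1, native CASC3-EIF4A3 and native MAGOH-CASC3 and overlapped that of untreated CASC3. Native MAGOH-EIF4A3 was last. For ID4, the first place went to untreated CASC3 with 107.5 ± 39.8 CPM (SD, n = 2). Its range took in RNA-seq with 100.6 ± 9.60 CPM (SD, n = 2), native CASC3-EIF4A3 and native RNPS1-EIF4A3. Per length, RNA-seq levels averaged 3.02 CPM per kb for ID1, 13.2 for ID2, 13.7 for ID3 and 42.9 for ID4, so ID4 was the most abundant ID RNA of these cells and ID1 the least.

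The log2 fold changes with cycloheximide in CASC3 footprints, which chose the genes, were 3.94 ± 0.58 for ID1, 3.14 ± 0.48 for ID2, 4.31 ± 0.66 for ID3 and -0.42 ± 0.49 for ID4 (SE, from an edgeR fit of the 8 crosslinked libraries). In that contrast 16% of 14297 transcripts were called higher and 15.8% lower at a Benjamini-Hochberg adjusted p under 0.05, and nothing is read from the place of the ID genes among them. After correction for GC content the values were 4.49, 3.44, 4.85 and -0.91.

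RNPS1 footprints of ID1, ID2 and ID3 were higher with cycloheximide in both treated libraries, but none of the 4 genes passed the test. The log2 fold changes were 2.33 ± 0.50 for ID1, 1.42 ± 0.43 for ID2, 2.45 ± 0.56 for ID3 and 0.26 ± 0.50 for ID4 (SE), with edgeR adjusted p of 0.210, 0.237, 0.210 and 0.858. The test had little reach here, since 0% of 14297 transcripts were called higher and 0.021% lower, although 1890 had an unadjusted p under 0.05. ID1, ID2 and ID3 were among those, with unadjusted edgeR p of 0.000297, 0.00516 and 0.000603. Without the library that stood apart, all 3 passed, at log2 fold changes of 2.40, 1.36 and 2.75 with adjusted p of 0.00563, 0.0242 and 0.00363, in a fit that assumes the lone treated library varies like the other groups. In that fit 5.63% of transcripts were called higher and 7.44% lower, and ID4 changed sign to -0.60 with an adjusted p of 0.332. With only that library kept in the treated group, ID1, ID2 and ID3 had log2 fold changes of 2.14, 1.43 and 1.64, and none passed. The DESeq2 Wald test called ID1 and ID3 higher, with adjusted p of 0.0188 and 0.0165, among 0.378% of transcripts called higher. GC correction did so too, with adjusted p of 0.0290 and 0.0360, among 0.105% called higher.

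**Figure D2:**
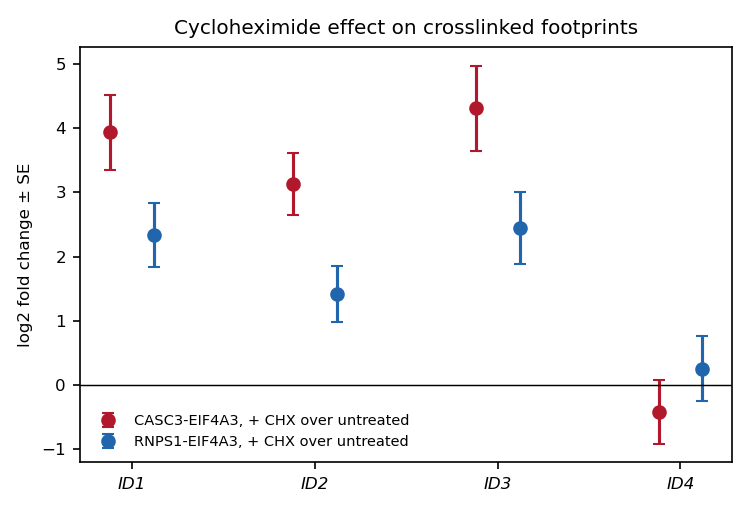
Log2 fold change with cycloheximide over untreated in crosslinked footprints, with its SE from the edgeR fit (2 libraries per group). CASC3 values (3.94, 3.14, 4.31 and -0.42 for ID1 to ID4) chose the genes and are a description; the RNPS1 values (2.33, 1.42, 2.45 and 0.26) did not pass the adjusted test.

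Set against RNPS1 directly, CASC3 footprints of ID1, ID2 and ID3 were above RNPS1 with cycloheximide, as a description, since the CASC3 libraries chose the genes. With cycloheximide the log2 ratios of CASC3 to RNPS1 were 1.33 ± 0.45 for ID1, 1.05 ± 0.42 for ID2 and 1.46 ± 0.52 for ID3. Without cycloheximide they were -0.27 ± 0.65, -0.66 ± 0.49 and -0.40 ± 0.70 for the same genes, but single libraries turned the sign of 2 of them. ID1 was at 0.09 without untreated RNPS1 replicate 1, and ID3 at 0.09 without untreated CASC3 replicate 2 and at 0.41 without untreated RNPS1 replicate 2. ID4 was at 0.09 ± 0.50 with cycloheximide and 0.76 ± 0.50 without it (SE throughout). Without the RNPS1 library that stood apart, the ratios with cycloheximide were 1.33 for ID1, 1.17 for ID2, 1.19 for ID3 and 1.00 for ID4, and with only that RNPS1 library 1.55, 1.06, 2.27 and -0.48. The ID3 and ID4 ratios with cycloheximide thus rest on which treated RNPS1 library is used. Whether the cycloheximide effects of the 2 proteins differ was not tested for the ID genes, because that difference contains the contrast that chose them.

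Without crosslinking or cycloheximide, CASC3-EIF4A3 and RNPS1-EIF4A3 footprints of the ID genes were measured in 1 library each, with no replicates to test them. The log2 ratios of CASC3-EIF4A3 to RNPS1-EIF4A3, centred on all transcripts, were -0.50 for ID1, -0.50 for ID2, -1.05 for ID3 and 0.31 for ID4. Their 95% exact counting intervals all included 0, but they were wide, and that of ID3 (3.21 against 10.3 CPM) ran from -4.05 to 0.06 on 3 and 23 counts. The other native pair, MAGOH-CASC3 over MAGOH-RNPS1, comes from 1 FLAG line and gave -0.06 for ID1, -0.64 for ID2, 0.39 for ID3 and 0.03 for ID4. Only the ID2 interval, -1.34 to -0.10, left out 0 in that pair.

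RNPS1 footprints without cycloheximide were set against RNA-seq to ask whether these RNAs carry a larger or smaller share of footprints than of RNA. ID1 had too few counts to pass the filter. The log2 ratios were -0.51 ± 0.32 for ID2, -1.17 ± 0.47 for ID3 and -0.65 ± 0.28 for ID4 (SE), with edgeR adjusted p of 0.194, 0.0507 and 0.0680. None passed by edgeR, where 32.1% of 12379 transcripts were called higher and 29.6% lower. An unadjusted edgeR p under 0.05 was reached by 2 of the 3 genes, beside 8117 of all 12379 transcripts, so nothing is read from it. The DESeq2 Wald test called none of the 3. ID3 lay close to the threshold and was called lower in 5 of 13 alternative settings, ID4 in 3 and ID2 in 1. As a description, CASC3 footprints over RNA-seq gave -1.11 for ID2, -1.53 for ID3 and 0.16 for ID4.

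Per kb of exon, CASC3 footprints with cycloheximide were densest in the short penultimate exons of ID2, ID3 and ID4. Density divides by exon length, which favours short exons, so counts are given beside it. In exon 4 of ID2 the density was 614.7 and 746.1 CPM per kb of exon with cycloheximide, against 0 and 59.0 without, on 317 and 320 counts against 0 and 3. The exons beside it had 40.4 and 30.1 CPM per kb (exon 3) and 51.6 and 11.3 CPM per kb (exon 5) in the same treated libraries. Per kb, the penultimate exon thus exceeded both neighbours in each of them. By counts it did not in replicate 1, where it had 317 counts and exon 5 had 320. RNPS1 footprints of this exon had 73.3 and 33.4 CPM per kb with cycloheximide, against 26.6 and 0 without.

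Exon 2 of ID3 had 473.1 and 377.4 CPM per kb in CASC3 footprints with cycloheximide. Without cycloheximide both CASC3 libraries had 0 counts there, so with a floor of 3 counts over the group the exon was at least 21.2-fold higher with cycloheximide (539 against 0 counts). RNPS1 footprints had 89.2 and 0 CPM per kb with cycloheximide, against 5.002 and 17.0 without. Those groups overlapped.

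Exon 2 of ID4 had 271.3 and 518.5 CPM per kb in CASC3 footprints with cycloheximide, against 233.4 and 42.7 without. RNPS1 footprints had 37.4 and 0 CPM per kb with cycloheximide, against 21.6 and 89.99 without. This exon was denser in treated CASC3 libraries than in untreated ones although the whole ID4 transcript was not. Its exon 1 had 26.1 and 29.1 CPM per kb in CASC3 footprints with cycloheximide, against 119.0 and 80.9 without. By counts, exon 2 of ID4 had the fewest in treated CASC3 replicate 1 (129, against 170 in exon 1 and 272 in exon 3). In treated CASC3 replicate 2 it had the most (205, against 158 and 85).

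ID1 has no short internal exon. Its exon 1 had 67.1 and 70.5 CPM per kb in CASC3 footprints with cycloheximide, against 0 and 4.74 without. Its exon 2, with the stop codon and the whole 3′ untranslated region, had 42.6 and 30.6 CPM per kb with cycloheximide, against 9.15 and 2.72 without. Both exons were higher in both treated libraries.

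**Figure D3:**
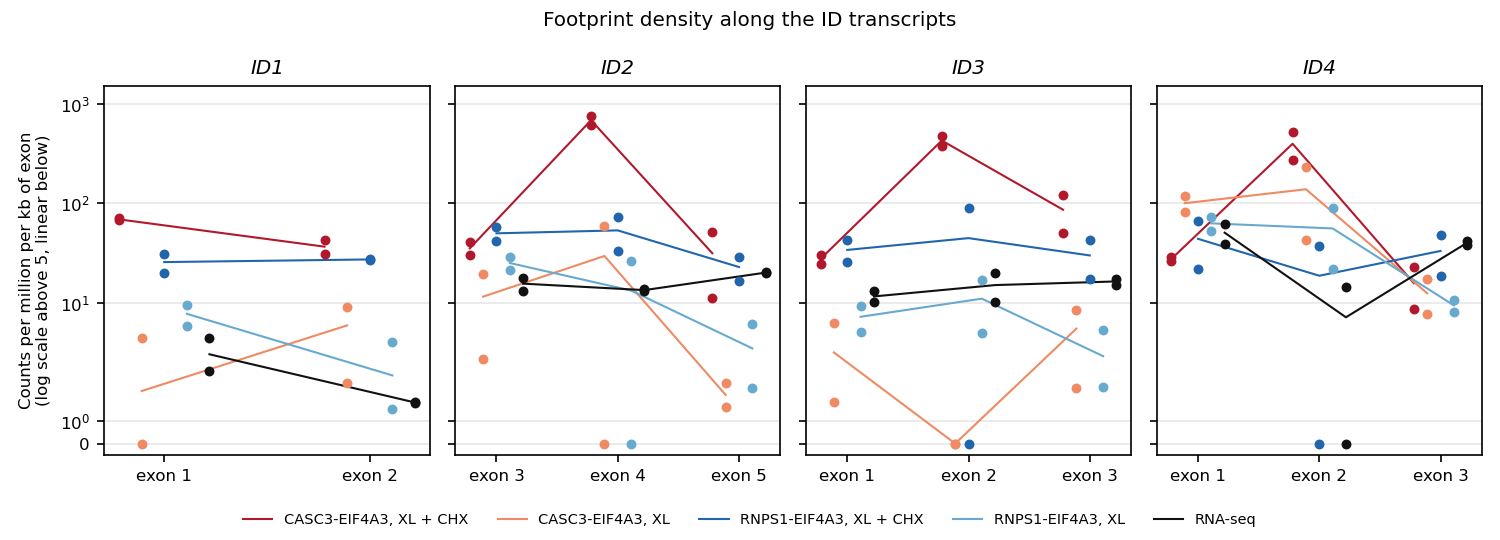
CPM per kb of exon along each ID transcript (log scale above 5, linear below); points are libraries, lines join group means, and exons 1 and 2 of ID2 are left out for lack of counts. In CASC3 footprints with cycloheximide the penultimate exons of ID2, ID3 and ID4 have means of 680.4, 425.2 and 394.9. The largest mean of another group shown in these exons is 138.0, for untreated CASC3 in exon 2 of ID4. Its libraries there had 233.4 and 42.7, beside 271.3 and 518.5 with cycloheximide. Native CASC3-EIF4A3, which is not drawn, had 163.0 in that exon.

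As a share of each gene's counts, summed over the 2 libraries, exon 4 of ID2 held 637 of 1363 CASC3 footprint counts with cycloheximide, 46.7% (95% exact binomial interval 44.1 to 49.4, counting error only; 37.2% and 62.6% in the libraries). Without cycloheximide it held 3 of 21, 14.3% (3.05 to 36.3). In RNPS1 footprints the share was 8.31% with cycloheximide (8.61% of 395 and 3.85% of 26 counts in the libraries) and 3.12% without, and in RNA-seq 3.17%. The treated CASC3 libraries, with shares of 37.2% and 62.6% in this exon, had GC contents of 46.5% and 48.0%. The treated RNPS1 libraries, with shares of 8.61% and 3.85%, had 48.1% and 56.6%. The part of GC content in these shares was not tested.

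Exon 2 of ID3 held 36.7% of CASC3 counts with cycloheximide (34.2 to 39.2), against 0 of 10 counts without. It held 12.9% of RNPS1 counts with cycloheximide (13.3% of 414 counts, and 0 of 12 in the library that stood apart) and 12.7% without, and 7.5% of RNA-seq counts. No native library had a count there, which over 65 counts allows a share of up to 4.62%. Exon 2 of ID4 held 32.8% of CASC3 counts with cycloheximide (29.9 to 35.8), against 7.85% without (4.46 to 12.6), and in RNPS1 footprints 4.0% with cycloheximide (4.68% of 342 counts, and 0 of 58) and 5.39% without.

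GC content differed along these transcripts as well as between the libraries. The last exons of ID2 and ID4 are poor in G and C (31.7% and 32.9%), and the long exons before the penultimate ones are rich (63.9% and 71.0%). In the exon fit, as a description, the CASC3 log2 fold changes with cycloheximide were 1.69 for exon 3, 4.61 for exon 4 and 3.86 for exon 5 of ID2. After correction for GC content they were 3.28, 3.51 and 2.03, so that exon 4 kept no clear lead over exon 3. For exons 1, 2 and 3 of ID4 they were -1.79, 1.61 and 0.42, and after correction 0.94, 3.66 and -1.38, so that exon 1 changed sign and exon 2 led by more. For ID3, exons 1 and 3 had 2.78 and 3.99, and 4.03 and 3.66 after correction. The part of GC content in the unequal change of the ID2 and ID4 exons was not tested beyond this correction.

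Of the 11 ID exons in the RNPS1 exon fit by edgeR, 8 also passed the filter in the 4 crosslinked RNPS1 libraries alone. The other 3, the penultimate exons of ID2, ID3 and ID4, entered only through the CASC3 libraries and are a description. None of the 8 was called, where 0.0756% of 104449 exons were called higher and 0.121% lower. An unadjusted edgeR p under 0.05 was reached by 4 of the 8, beside 16159 of all 104449 exons. The 6 tested exons of ID1, ID2 and ID3 had log2 fold changes above 0 with cycloheximide, between 0.86 for exon 3 of ID2 (adjusted p = 0.645) and 3.13 for exon 2 of ID1 (adjusted p = 0.117, edgeR). The largest next to it were 2.85 for exon 3 of ID3 (adjusted p = 0.123) and 2.45 for exon 5 of ID2 (adjusted p = 0.170). Without the library that stood apart, 5 of the 8 were called higher and none lower, namely both exons of ID1, exon 5 of ID2 and exons 1 and 3 of ID3, among 8.46% of exons called higher and 9.31% lower. The values of the penultimate exons, without a test, were 2.42 for exon 4 of ID2 (1.24 to 6.83 with 1 library left out), 2.26 for exon 2 of ID3 (-4.74 to 3.54) and -1.03 for exon 2 of ID4 (-6.49 to 0.51). They rest on few RNPS1 counts, 34 and 1 with cycloheximide against 4 and 0 without for exon 4 of ID2, so their place beside their neighbours cannot be read.

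The last exon of ID4 showed another contrast between the groups. It held 57.9% and 56.9% of RNPS1 counts with cycloheximide, against 21.4% and 19.8% without. In CASC3 footprints it held 47.6% and 19.0% with cycloheximide, against 18.8% and 14.3% without, so treated replicate 2 was level with an untreated library. Native footprints had 14.5% of their counts there, and RNA-seq had 59.0%. Untreated footprints of this untranslated exon, which ends at no junction, were thus sparser than its share of RNA, and treated RNPS1 footprints were not. The last exon of ID2 had 41.0% and 23.1% in RNPS1 footprints with cycloheximide, against 18% and 11.9% without, and the 23.1% rests on 6 of 26 counts. CASC3 footprints of this exon had 37.6% and 11.4% with cycloheximide, against 14.3% and 14.3% without, which overlap, and native footprints had 13.1% and RNA-seq 57.1%. These last exons are poor in G and C, the libraries differ in GC content, and its part in these shares was not tested.

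High penultimate shares in CASC3 footprints were common among other genes. Among transcripts with a penultimate exon of 50 to 100 bases and at least 50 counts in the last 3 exons, the median share of those counts in the penultimate exon was 22.8% and 35.1% in CASC3 libraries with cycloheximide, against 15.1% and 27.2% in CASC3 libraries without. These groups overlapped, and far more transcripts reached 50 counts with cycloheximide (2573 and 2229) than without (279 and 172). RNPS1 libraries had 10.9% and 3.7% with cycloheximide, against 13.3% and 17.1% without, and RNA-seq had 1.85% and 1.81%. The ID2 share exceeded that of 87.0% and 96.2% of the other transcripts in the 2 CASC3 libraries with cycloheximide. ID3 exceeded 79.9% and 70.2% of them, and ID4 exceeded 49.2% and 74.6%.

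**Figure D4:**
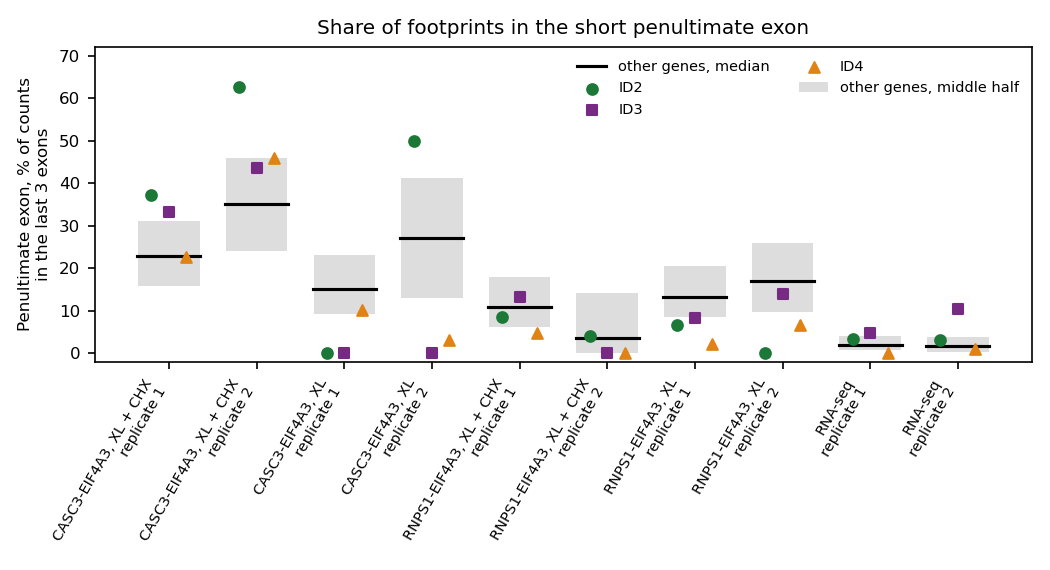
Share of the counts of the last 3 exons that fell in the penultimate exon, per library, for ID2, ID3 and ID4 (points) and for other transcripts with a penultimate exon of 50 to 100 bases (line, median; band, interquartile range). Untreated CASC3 points rest on few counts (7 for ID2 in replicate 2), and all 3 genes lie at or above the median of the others in CASC3 libraries with cycloheximide except ID4 in replicate 1, at 22.6% against 22.8%.

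Genes of BMP signalling, other BMP-SMAD targets, and partners or reported targets of ID or E proteins were then read in the same CASC3 contrast. The receptor and SMAD lists also hold genes of the related TGF-β and activin branches, such as TGFBR1, TGFBR2, ACVR1B, SMAD2 and SMAD3. The lists did not choose the members, but they were drawn up with earlier results of these data known. Their calls are thus a description and no independent test. Over 8 lists with 108 genes, 80 passed the filter, and 22 were called higher, 12 lower and 46 neither in CASC3 footprints with cycloheximide, beside 16% higher and 15.8% lower of all transcripts tested. In RNPS1 footprints none of the 80 was called by edgeR. An unadjusted edgeR p under 0.05 was reached by 11 of the 80, beside 1890 of all 14297 transcripts, so nothing is read from it. The DESeq2 Wald test called 1 of the 80 higher, beside 0.378% of all transcripts. Without the RNPS1 library that stood apart, 7 of 87 were called higher and 8 lower, beside 5.63% higher and 7.44% lower of all transcripts. For CASC3 footprints, the counts called in each list below stand beside the same 16% higher and 15.8% lower of all transcripts. Medians are given beside 0.06, the median log2 fold change of all transcripts in CASC3 footprints.

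Receptors and SMAD proteins had more genes higher than lower. Of 11 receptors tested, 4 rose and none fell, with a median of 1.36. BAMBI, a receptor-like protein without a kinase that dampens BMP signals, had 85.8 and 95.8 CPM in CASC3 footprints with cycloheximide, against 11.7 and 18.9 CPM without (log2 fold change 2.77 ± 0.54, adjusted p = 0.00362, edgeR). The type II receptor gene ACVR2A rose by 2.77 ± 0.55 and BMPR2, the main BMP type II receptor, by 1.63 ± 0.44. Of the 6 SMAD genes 3 rose and none fell, with a median of 1.26: SMAD1 by 2.43, SMAD9 by 1.98 and the shared partner SMAD4 by 1.31. SMAD1 had 14.8 and 0 CPM in the untreated CASC3 libraries, so its fold rests on 14 counts in 1 of them.

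Inhibitors of SMAD signalling gave 2 genes higher, 1 lower and 8 not called, with a median of 0.64. With 16% of all transcripts called higher and 15.8% lower, nothing is read from these counts. SKIL, a repressor that binds SMADs, had 318 and 349 CPM with cycloheximide, against 44.5 and 18.9 CPM without (3.63 ± 0.71, adjusted p = 0.00370, edgeR). The inhibitory SMAD7 rose by 1.96 and TOB2 fell by 1.78. Among other direct targets of BMP and SMADs, 8 of 12 rose, 1 fell and 3 were not called, with a median of 2.21. KLF10, an early response factor of this family of signals, had 112 and 57.4 CPM with cycloheximide, against 13.8 and 5.04 CPM without (3.35 ± 0.54, adjusted p = 0.00187, edgeR). GATA3, a zinc finger transcription factor, rose by 2.77 and the bHLH repressor HES1 by 2.42, while JUNB, an AP-1 subunit, fell by 2.17. ATOH8 had 66 and 73 counts with cycloheximide and none without, at least 5.46-fold higher.

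The list of ligands and extracellular antagonists went the other way, with 5 of 14 tested lower, none higher and a median of -1.28. BMP1, at -1.32, is among the 5, but it is a protease and neither a ligand nor an antagonist. Counts of ligands below refer to this whole list. GDF7, a BMP family ligand, had 2.48 and 1.64 CPM with cycloheximide, against 19.1 and 31.5 CPM without, and fell by 3.43 ± 0.70 (adjusted p = 0.00437, edgeR). The BMP antagonist CHRD fell by 2.46 and the ligand GDF11 by 1.76. After GC correction 2 of the 14 were called lower and 2 higher, so the direction of this list did not hold there.

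Partners of the ID proteins were mixed. Of the 3 E protein genes, TCF12 rose by 1.28, TCF3 fell by 1.93 and TCF4 was at 0.06. Of 13 other bHLH genes tested of 31 listed, 4 fell, 2 rose and 7 were not called, with a median of -1.62. Over all transcripts 15.8% were called lower and 16% higher. OLIG1, a neural lineage factor, had 0.993 and 1.64 CPM with cycloheximide, against 15.9 and 17.6 CPM without, and fell by 3.44. BHLHE22, another factor of neural cells, was called lower on 1 and 2 counts with cycloheximide, against 4 and 10 without. BHLHE40, a repressor that responds to many stimuli, rose by 2.00. Of 10 cell cycle genes linked to ID or E proteins 2 rose, RB1 by 2.54 and its relative RBL1 by 2.49, none fell, and the median was 0.58. With 16% of all transcripts called higher, nothing is read from 2 of 10.

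These counts leaned on single libraries. Without untreated CASC3 replicate 2, only 1 direct target, 1 receptor, no SMAD gene and no ligand was called, while calls over all transcripts fell to 0.417% higher and 1.9% lower. Without replicate 1 of that group, 3 direct targets and 2 receptors were called higher, beside 5.62% of all transcripts higher and 8.33% lower. Without treated CASC3 replicate 2, 3 direct targets, no SMAD gene and no ligand were called, beside 3.55% higher and 3.96% lower. Without treated CASC3 replicate 1, no SMAD gene and 1 ligand were called, beside 5.2% higher and 3.5% lower. Without treated RNPS1 replicate 1 or 2, 8 ligands were called lower and 6 receptors higher, beside 25.6% or 24.2% of all transcripts higher and 22.3% or 21.0% lower. After GC correction, where 11% of all transcripts were called higher and 12.1% lower, 8 direct targets, 3 receptors and 2 SMAD genes were called higher, with 1 E protein gene lower, and 1 other bHLH gene higher and 2 lower. In RNPS1 footprints the medians of the 8 lists lay between -0.34 for the other bHLH genes and 0.64 for the receptors, beside 0.08 for all transcripts. SKIL had the largest RNPS1 value of those named here, at 2.96 ± 0.69 (adjusted p = 0.210, edgeR).

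**Figure D5:**
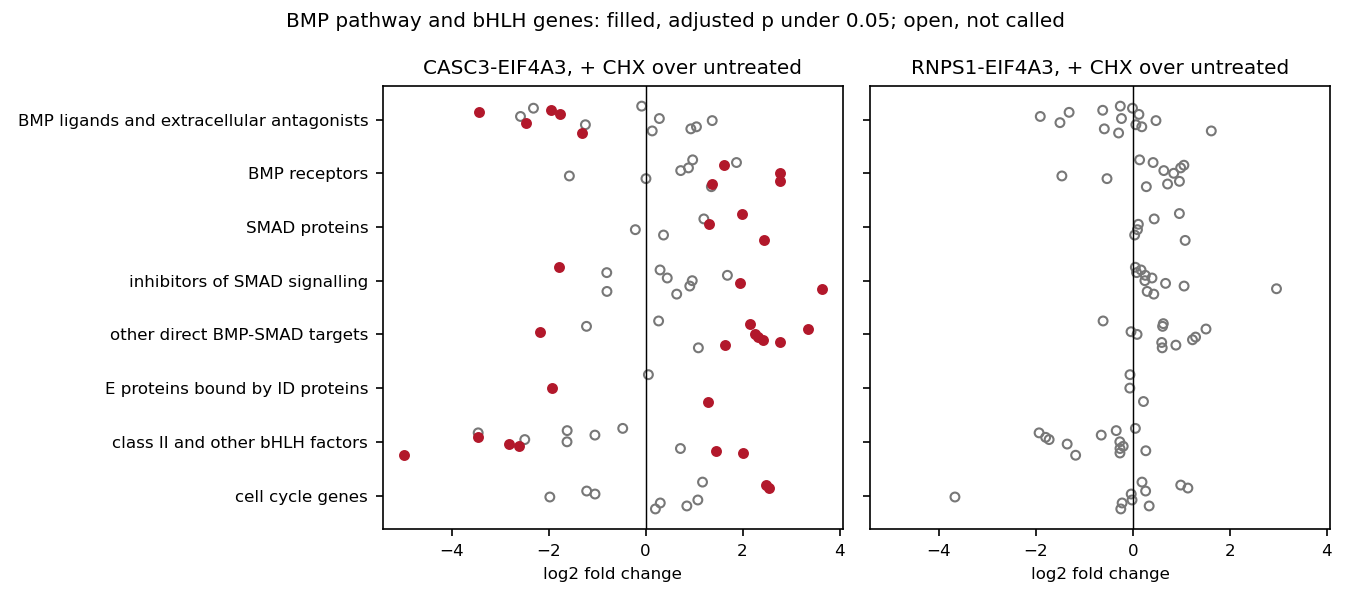
Log2 fold change with cycloheximide over untreated for the tested genes of 8 lists, in CASC3 footprints (left) and RNPS1 footprints (right); filled points had an edgeR adjusted p under 0.05, and ATOH8 is left out because its untreated CASC3 libraries had no count. In CASC3 footprints the 7 filled direct targets on the higher side leave out ATOH8, the remaining one of 8 called higher. In the list of ligands and antagonists 5 genes, with the protease BMP1 among them, were called lower. In RNPS1 footprints no point is filled.

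The profiles of ID1, ID2 and ID3 over the 10 group means were more like each other than like that of ID4. This is partly fixed by the choice of the genes, since the means include the CASC3 groups that chose ID1, ID2 and ID3. On log2(CPM + 1), Pearson's r was 0.867 for ID1 with ID2, 0.879 for ID1 with ID3 and 0.764 for ID2 with ID3, but 0.0564, -0.0361 and 0.212 for ID4 with ID1, ID2 and ID3. Among genes with a mean of at least 10 CPM, the profile most like that of ID1 was SMAD1 (r = 0.955), followed by AC006486.9, ANKRD13C, NRP1 and LEMD3 (0.948). For ID2 the nearest were LEMD3 (0.945), RBM22, PNO1, SUCLA2 and TXNDC9 (0.925), and for ID3 AP1AR (0.976), HNRNPLL, SMAD9, SEC22A and DENND5B (0.953). For ID4 they were OAZ1 (0.925), MMD, FTSJ2, JAGN1 and SOCS6 (0.892). These correlations describe 10 points that share libraries, depth and GC content, and include the treated groups.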

How the data were processed

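The deposited tables hold read counts made by the authors, by exon and by transcript, in 15 libraries. Per the submitters' processing notes, cutadapt 1.16, TopHat2 2.1.1 with hg38, and bedtools were used; for annotation and counting, settings were not given in the sources used. The 19 blank exon lines were left out. Of 49948 transcripts, 43245 were found in GENCODE v29, the source of strand, coding parts and exon sequences, and 99.97% of transcript values equalled the sum of their exons. Values were used as whole counts without rounding.

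The ID genes and all lists were chosen with earlier results of these data known. Genes named from other lists were the called members, at most 3 per list by smallest p, and ATOH8, JUNB and TCF4 were added after their values were seen. One transcript per symbol was used, that with the most counts.

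The test was the quasi-likelihood F test of edgeR 4.0.16 (R 4.3.3) after TMM normalization and a filterByExpr minimum count of 10, with Benjamini-Hochberg adjustment over all transcripts or exons tested. The 8 crosslinked libraries made 1 fit, and the untreated crosslinked footprints with RNA-seq another. SE was taken as the size of the log2 fold change over the root of F. The scripts were tested on simulated counts. CPM uses total transcript counts. Native ratios used a prior of 2 counts, and shares have 95% exact binomial intervals (SciPy 1.17.1); intervals and floors of 3 counts cover counting error only. Footprints are compared as shares of libraries. Nothing in the labels makes replicates separate cultures, and p-values then measure only the spread among these libraries, which may be technical. Whether replicate letters pair samples is not given in the labels, and libraries were treated as unpaired. The deviations of same-lettered libraries correlated at -0.022 to 0.325, and not all pairs exceeded 0.1. Between crosslinked groups they ran from 0.035 to 0.325, which leaves pairing undecided. Alternatives were DESeq2 size factors, the DESeq2 1.42.0 Wald test, no filter, each library left out, a replicate block, only the 2 groups compared, sums per symbol and, added after seeing the data, GC correction in 20 bins. Tables and plots used Python 3.11.15, pandas 2.3.3, numpy 2.4.6 and matplotlib 3.10.9.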

Additional observations from a re-analysis of the deposited data

How the results depend on the processing

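With 2 libraries per group, the RNPS1 cycloheximide contrast made few calls, and its counts moved with most settings. Transcripts called higher and lower were 67 and 78 with no filter, 54 and 72 with the DESeq2 Wald test, 15 and 9 with GC correction, and 0 and 0 with only the 2 groups compared, against 0 and 3 in the result reported. Leaving out 1 library gave 0 to 876 higher and 0 to 1157 lower, and in the CASC3 contrast 64 to 3761 higher and 292 to 3268 lower. Exons called higher and lower in the RNPS1 contrast were 119 and 31 with DESeq2 size factors, 135 and 239 with exons averaging at least 10 counts, 0 and 0 with only the 2 groups, and 830 and 80 with GC correction. Without 1 library they ran over 0 to 10500 and 0 to 11551.

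The RNPS1 log2 fold changes of ID1, ID2 and ID3 were above 0 in all 15 alternatives, and the adjusted p ranged from 0.00563 to 1.00, from 0.0242 to 1.00 and from 0.00363 to 1.00. ID1 passed at 2.34 with no filter, 2.31 with the Wald test and 2.68 with GC correction, and ID3 at 2.45, 2.40 and 2.85. Without 1 library ID1 ran from 1.98 to 2.71, ID2 from 1.19 to 1.68, ID3 from 1.64 to 3.18 and ID4 from -0.60 to 0.84. ID4 was negative without untreated RNPS1 replicate 1 (-0.04) and without treated RNPS1 replicate 2 (-0.60). At exon level, exons 1 and 2 of ID4 turned to 0.12 and 0.49 with GC correction, exon 2 of ID4 to 0.51 without untreated RNPS1 replicate 2 (range -6.49 to 0.51), and exon 2 of ID3 to -4.74 without treated RNPS1 replicate 1 (range -4.74 to 3.54), where the median of all exons was -1.87.

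Over RNA-seq, RNPS1 footprints of ID3 passed at -1.25 with DESeq2 size factors, -1.13 with only the 2 groups and -1.90 with GC correction, ID4 at -0.72 with DESeq2 size factors, and ID2 at -0.90 with GC correction. Without 1 library ID3 ran from -2.004 to -0.70 and ID4 from -1.13 to -0.30. The CASC3 value of ID1 was 4.12 with no filter, 3.81 with the 2 groups and 4.49 with GC correction, 3.82 to 4.03 without 1 library. Without 1 library the CASC3 value of ID2 ran from 2.97 to 3.46, of ID3 from 3.86 to 5.34 and of ID4 from -0.61 to -0.10. CASC3 over RNPS1 with cycloheximide was 1.63 for ID1 with GC correction, and without 1 library 1.29 to 1.55 for ID1, 0.95 to 1.18 for ID2, 1.19 to 2.27 for ID3 and -0.48 to 1.00 for ID4 (-0.27 with GC correction). Without cycloheximide it ran from -0.54 to 0.09 for ID1 and from -1.34 to 0.41 for ID3.

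With the replicate number as a block, RNPS1 calls were 2 higher and 5 lower for transcripts and 11 and 20 for exons, and over RNA-seq ID3 passed at -1.20 and ID4 at -0.66; it changed no other ID call. Counted per kb of exon, the mean penultimate share in treated CASC3 and treated RNPS1 footprints was 90.9% and 40.0% for ID2, 79.6% and 25.6% for ID3, and 89.0% and 24.1% for ID4, against 49.9% and 6.23%, 38.4% and 6.64%, and 34.2% and 2.34% by counts. The cause of these moves was not tested. Depth limits ID1 in RNA-seq and all 4 genes in untreated CASC3 footprints, which had 7 to 191 counts per gene.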
